A study of Homo sapiens with 6 samples.

Results

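The genes described are the deubiquitinases of LS 174T cells, taken as every gene symbol of the count tables that begins with USP and a digit, OTUD, OTUB, UCHL or JOSD, or that is UBL7, ATXN3, BAP1, CYLD or TNFAIP3, with 60 or more reads summed over the 6 libraries. Of 24462 symbols, 110 matched the names and 69 had enough reads. LS 174T, a line grown from a human colorectal adenocarcinoma, secretes gel-forming mucin and is used as a model of goblet cells. Cells were given 4 mM propionate for 4 h (n = 3 libraries) or left untreated as control (n = 3 libraries). Every library came from the same range of passages. Nothing in the labels tells whether the 3 libraries of a condition were grown apart, so the p-values weigh differences only against the spread among these libraries, and that spread may be technical. In 6 of the 69 cases the name caught a gene of another kind: UBL7 is a ubiquitin-like protein, USP6NL a GTPase-activating protein, OTUD6B-AS1, USP3-AS1 and USP12-AS1 are antisense RNAs, and USP32P2 is a pseudogene. The remaining 63 are deubiquitinase genes by name, of which USP39 encodes a splicing factor that lacks the catalytic residues.

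Deubiquitinases are proteases that cut ubiquitin from proteins or trim ubiquitin chains, and so oppose the ligases that mark proteins for the proteasome, for sorting or for signalling. Most are cysteine proteases of the ubiquitin-specific protease (USP) family, with smaller families of ovarian tumour (OTU), ubiquitin C-terminal hydrolase (UCH) and Josephin proteases. Several act on histones, on stalled DNA repair factors or on the ubiquitin chains that carry NF-kB signals, and the series asks about the hypoxia-inducible factors, whose subunits are themselves turned over through ubiquitin.

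Library totals ran from 11603288 to 12746170 reads, and levels are given as CPM, reads per 1000000 reads of the library with TMM scaling. At these depths 3 reads corresponded to 0.233 to 0.262 CPM. A level is a share of each library's reads, so that fewer cells of one kind and less RNA per cell cannot be told apart. All 8 goblet and colon epithelial markers examined averaged above 1 CPM in both groups, with a summed level of 1699 to 1788 CPM with propionate and 1799 to 1900 CPM in control. Among them MUC2 was called higher (log2 fold change 0.25, edgeR adjusted p = 0.0396) and CDX2 lower (-0.39, edgeR adjusted p = 0.00374), and KRT20 was at 0.583 CPM in control library 3. Of 3 leukocyte, 3 fibroblast and 2 endothelial markers, only LYZ and COL1A1 averaged above 1 CPM, and CD3E, PDGFRA and VWF were at 0 in every library. Summed levels with propionate and in control were 9.3 to 11.9 and 14.3 to 23.2 CPM for leukocyte, 3.13 to 4.42 and 0.749 to 1.14 CPM for fibroblast, and 0 and 0.0855 to 0.175 CPM for endothelial markers. COL1A1 (log2 fold change 2.05, edgeR adjusted p = 0.000219) was higher and LYZ (-0.76, edgeR adjusted p = 0.00222) lower, and the part of these marker changes in the results below was not tested.

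Changes were spread over both directions and were mostly small. Of the 69 genes, 68 had enough reads to be tested and 17 passed, 8 of them higher and 9 lower with propionate. The threshold was an adjusted p under 0.05 in edgeR's quasi-likelihood test, adjusted by Benjamini-Hochberg over the 13605 genes tested. This was 25% of those tested, where 34.2% of all tested genes passed, 17.2% as higher and 17.0% as lower. The median log2 fold change was -0.00 over these 68 genes and -0.01 over all 13605 genes. The 2 groups of libraries did not overlap in 25 of the 68 genes, or 36.8%, against 45.2% of all genes. Of the 17 genes that passed, 2 changed by more than 2-fold, USP2 and USP35. The 51 that did not pass had fitted log2 fold changes from -0.65 to 0.44, and the median SE over the 68 genes was 0.124 on the log2 scale. The 14 USP family genes that passed (7 higher, 7 lower) were among 46 tested, the 2 OTU genes among 9, and none of the 4 UCH or 3 Josephin genes passed. These counts come from a fit without a block on replicate number. With that block, 33.8% of the group and 44.5% of all genes passed.

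**Figure D1:**
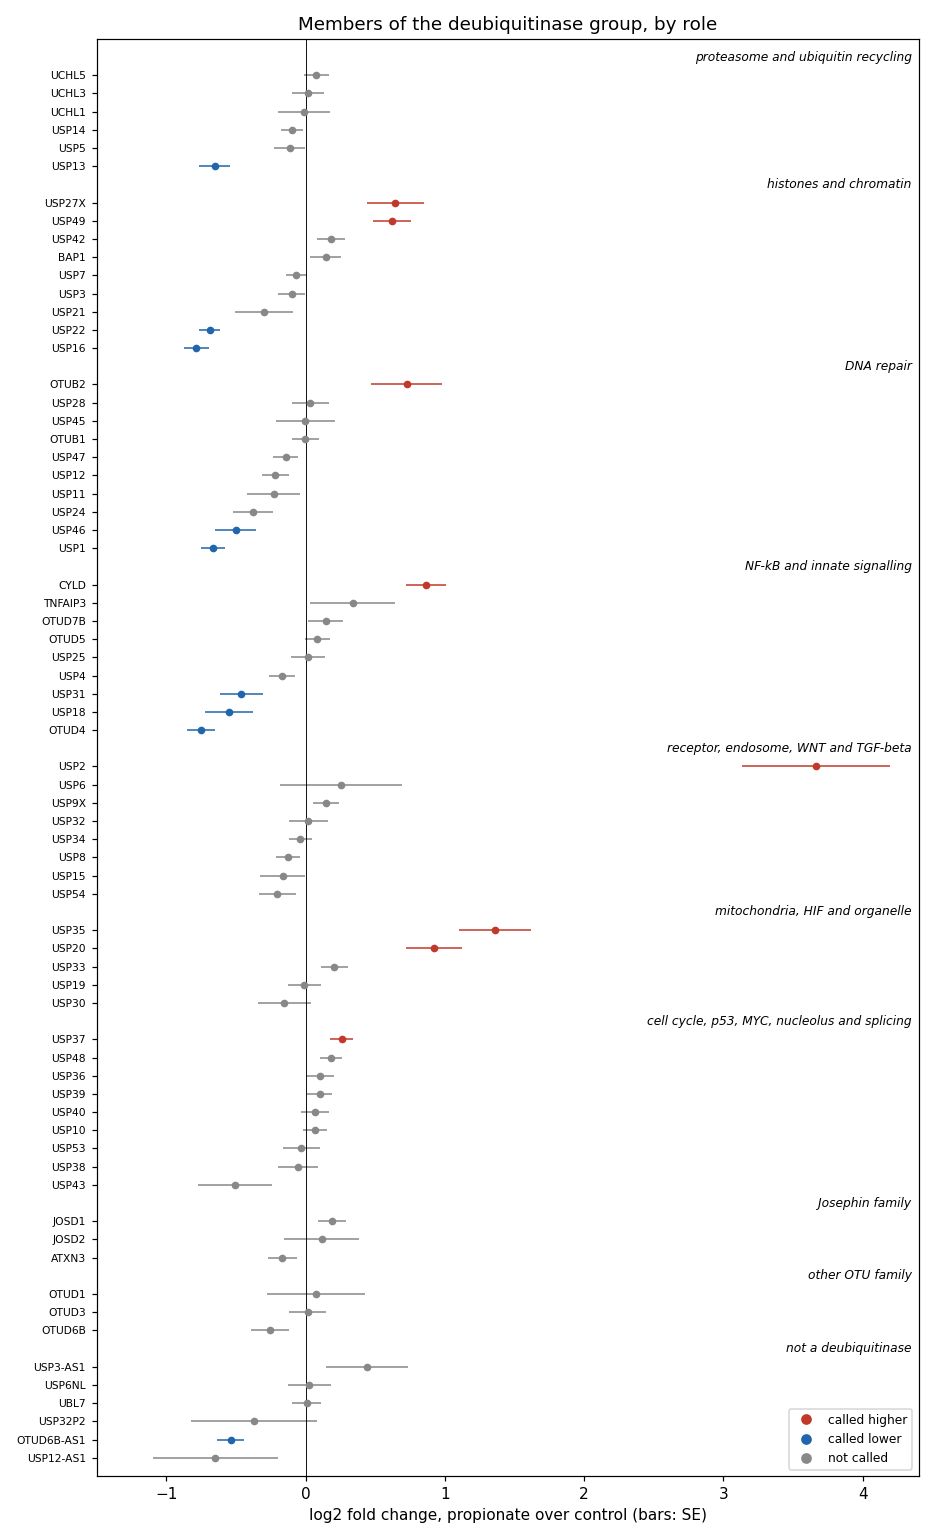
Fitted log2 fold change, propionate over control, of the 68 genes tested, grouped by role, with bars for 1 SE; red marks genes called higher, blue those called lower and grey those that did not pass. The 8 higher and 9 lower genes are scattered over the roles, USP2 stands farthest to the right at 3.66, and the lowest value among called genes is that of USP16 at -0.78.

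Deubiquitinases that act on histones held the falls with the smallest p-values of the group. USP22 and USP16 were lower, USP49 and USP27X were higher, and the other 5 of the 9 tested did not pass (44.4% called, against 34.2% of all genes). USP22 is the catalytic subunit of the deubiquitinating module of the SAGA coactivator complex and removes ubiquitin from histone H2B. It was at 267, 257 and 275 CPM in the propionate libraries, against 437, 429 and 419.7 CPM in the controls. The groups lay far apart relative to the spread within each, and USP22 was 1.61-fold lower (log2 fold change -0.69 with an SE of 0.0757, edgeR adjusted p = 1.37e-06). USP16, a histone H2A deubiquitinase needed for progression through mitosis, was at 51.1, 51.4 and 48.1 CPM in the propionate libraries, against 88.4, 88.3 and 82.8 CPM in the controls. It fell 1.72-fold (log2 fold change -0.78 with an SE of 0.0889, edgeR adjusted p = 1.86e-06), again with every propionate library below every control. Exons of USP22 overlap those of the antisense RNA CCDC144NL-AS1 over 394 bases in GENCODE 29, and that RNA was called higher (log2 fold change 0.86, edgeR adjusted p = 0.0106), opposite to USP22. USP22 exons also overlap those of AC087393.2 on the opposite strand over 504 bases, and AC087393.2 is not among the symbols counted.

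USP49, which removes ubiquitin from H2B, was at 23.2, 21.5 and 24.9 CPM in the propionate libraries, against 15.7, 13 and 16.5 CPM in the controls. It was 1.54-fold higher, with no overlap between the groups (log2 fold change 0.62 with an SE of 0.136, edgeR adjusted p = 0.00153). USP27X, a close relative of USP22 that can join the same adaptor proteins, had 8.52, 10.2 and 7.44 CPM in the propionate libraries, against 6.29, 4.79 and 5.66 CPM in the controls. Its groups did not overlap and it was 1.56-fold higher (log2 fold change 0.64 with an SE of 0.203, edgeR adjusted p = 0.0186), but the call was lost without propionate library 2 or control library 2 (edgeR adjusted p = 0.0977 and 0.0751). USP22 and USP27X have similar coding sequences, so reads from there could be split between them by the counting. The library kit counts mostly 3′ ends, and the part of such reads in either count was not tested. The third relative, USP51, had 2 reads in all and was not part of the group. BAP1, the nuclear tumour suppressor that acts on H2A, was at 34.3 ± 2.4 CPM with propionate and 31.1 ± 2.72 CPM in control (mean ± SD here and below, n = 3 each; log2 fold change 0.14 with an SE of 0.11, edgeR adjusted p = 0.339). USP7, which acts on the MDM2 and p53 proteins as well as on histones, was at 334 ± 6.08 CPM with propionate and 349 ± 15.5 CPM in control (log2 fold change -0.07 with an SE of 0.076, edgeR adjusted p = 0.544). USP3, USP21 and USP42 had log2 fold changes of -0.10, -0.30 and 0.18 (edgeR adjusted p between 0.173 and 0.468).

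**Figure D2:**
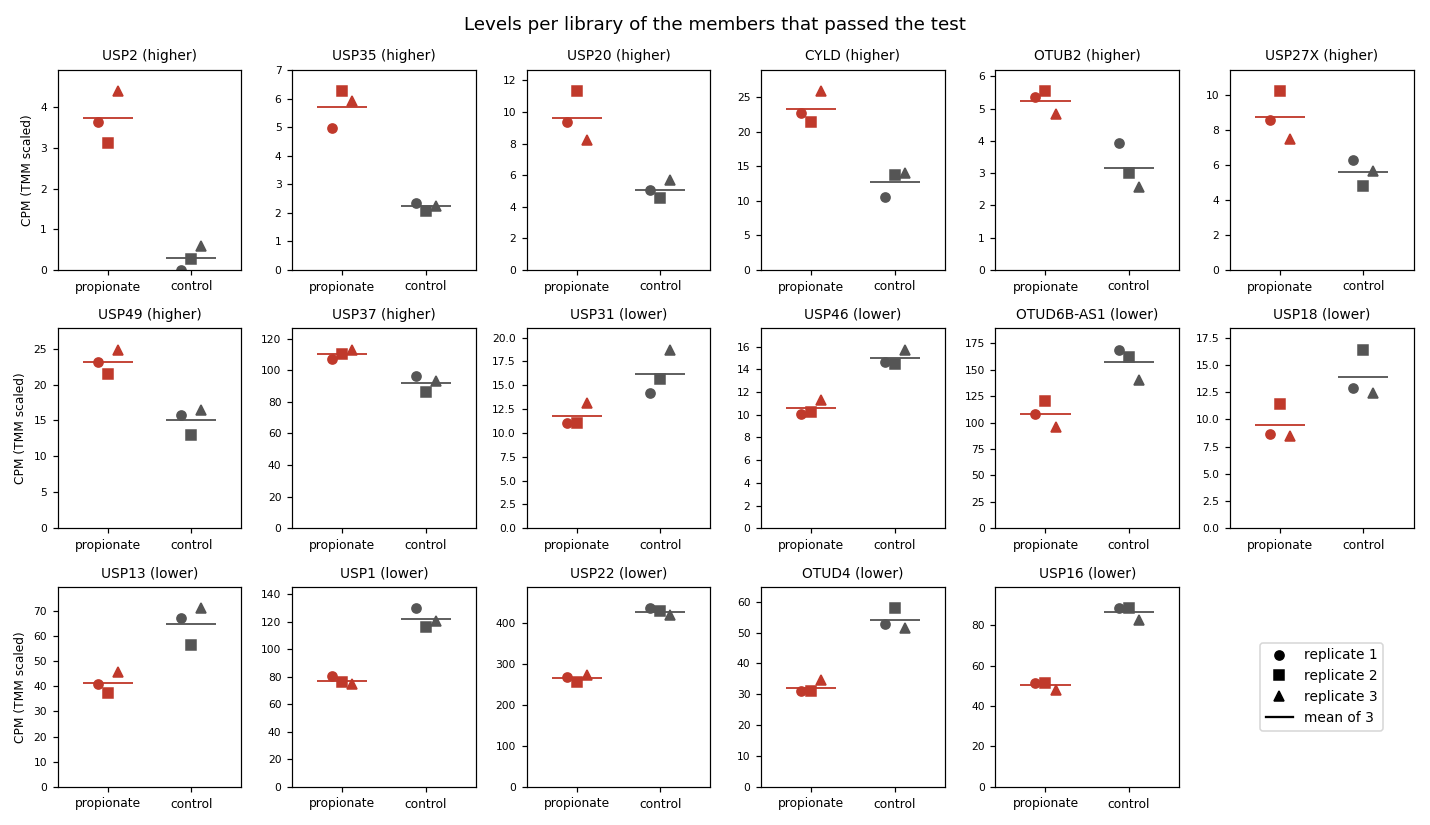
Level of each of the 17 genes that passed the test in every library, as TMM-scaled CPM on an axis that starts at 0, propionate at left and control at right; symbols mark the replicate numbers and lines the mean of 3 libraries. The 3 propionate libraries lie on one side of the 3 controls in all 17 panels, as in USP22, where they sit between 257 and 275 CPM and the controls between 420 and 437 CPM.

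The promoter windows of USP22 and USP27X, the related pair that moved in opposite directions, are shown with those of USP2 and USP16, the genes with the largest rise and the largest fall among those called. Each is the window from 250 bases before to 50 bases after the transcript start, from RefSeq on GRCh38.p14, read 5′ to 3′ on the gene's strand, and capitals mark the GC box GGGCGG or its reverse complement CCGCCC. The USP2 window lies at chr11:119364159-119364458 on the minus strand and the USP22 window at chr17:21042962-21043261 on the minus strand. The USP27X window lies at chrX:49879234-49879533 on the plus strand and the USP16 window at chr21:29024418-29024717 on the plus strand.
USP2: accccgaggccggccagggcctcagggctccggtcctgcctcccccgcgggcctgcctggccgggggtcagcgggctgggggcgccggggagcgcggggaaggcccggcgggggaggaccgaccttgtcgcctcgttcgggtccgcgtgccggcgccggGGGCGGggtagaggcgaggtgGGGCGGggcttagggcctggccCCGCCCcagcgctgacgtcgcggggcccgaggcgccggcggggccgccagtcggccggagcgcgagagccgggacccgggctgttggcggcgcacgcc
USP22: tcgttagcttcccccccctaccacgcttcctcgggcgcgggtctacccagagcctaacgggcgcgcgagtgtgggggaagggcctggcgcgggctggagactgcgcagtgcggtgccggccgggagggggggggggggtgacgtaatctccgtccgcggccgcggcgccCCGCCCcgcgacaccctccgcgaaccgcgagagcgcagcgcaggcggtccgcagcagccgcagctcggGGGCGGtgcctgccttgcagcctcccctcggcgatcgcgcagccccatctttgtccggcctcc
USP27X: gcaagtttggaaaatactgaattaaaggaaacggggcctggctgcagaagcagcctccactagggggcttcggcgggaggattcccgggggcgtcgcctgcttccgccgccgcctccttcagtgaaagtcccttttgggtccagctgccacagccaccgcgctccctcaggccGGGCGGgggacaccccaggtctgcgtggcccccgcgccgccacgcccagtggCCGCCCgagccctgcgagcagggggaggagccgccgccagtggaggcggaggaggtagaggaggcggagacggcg
USP16: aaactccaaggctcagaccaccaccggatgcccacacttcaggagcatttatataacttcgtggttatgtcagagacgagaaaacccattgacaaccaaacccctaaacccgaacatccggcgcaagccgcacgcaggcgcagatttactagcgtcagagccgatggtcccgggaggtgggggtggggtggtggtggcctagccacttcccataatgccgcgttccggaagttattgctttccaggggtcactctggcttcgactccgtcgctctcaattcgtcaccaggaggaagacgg

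The 2 rising and the 2 falling genes were not separated by these letters. The USP2 window held 3 GC boxes and those of USP22 and USP27X 2 each, while the USP16 window held none. GC content of the windows was 82.7% for USP2, 75.7% for USP22, 70.0% for USP27X and 56.3% for USP16, where the median of all 35116 promoter windows was 58.7%. A GC box on either strand was found in 58 of the 78 windows listed for 55 of the 69 genes, or 74.4%, in 9 of 10 windows of genes called higher and in 7 of 10 windows of genes called lower, against 45.0% of all windows. The letters ACGTG, a core of the hypoxia response element that hypoxia-inducible factors bind, were in none of the 4 windows shown, in 23.1% of the windows of the group and in 21.4% of all windows, counted on both strands. The set of all windows was not limited to genes with reads in these cells, as the group was. These matches are descriptions of letters and not of bound sites. Windows of one gene can overlap and share matches.

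Among deubiquitinases tied to DNA repair, USP1 and USP46 fell, OTUB2 rose and 7 of the 10 tested did not pass. USP1, which with the activator WDR48 removes ubiquitin from FANCD2 and PCNA, was at 80.9, 76.1 and 74.7 CPM in the propionate libraries, against 130.0, 116 and 121 CPM in the controls. It was 1.58-fold lower (log2 fold change -0.66 with an SE of 0.0854, edgeR adjusted p = 8.19e-06), with a gap between the groups wider than either group's range. USP46 and USP12 are close relatives that depend on the same activator, and their place in this group rests on no result of these data. USP46 had 10.1, 10.3 and 11.3 CPM in the propionate libraries, against 14.7, 14.4 and 15.7 CPM in the controls, and was 1.42-fold lower (log2 fold change -0.50 with an SE of 0.149, edgeR adjusted p = 0.0131). USP12 had 52.2, 56.8 and 57.5 CPM in the propionate libraries, against 64.6, 58 and 70.8 CPM in the controls. Its groups were also apart, by a narrower margin, and it missed the threshold (log2 fold change -0.22 with an SE of 0.0983, edgeR adjusted p = 0.0968), which it passed in the fit blocked on replicate number (edgeR adjusted p = 0.0245) and without control library 2 (0.0486).

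OTUB2, an OTU protease with activity towards K63-linked chains, had 5.35, 5.54 and 4.82 CPM in the propionate libraries, against 3.93, 2.99 and 2.58 CPM in the controls. The groups did not overlap, and OTUB2 was 1.65-fold higher (log2 fold change 0.73 with an SE of 0.254, edgeR adjusted p = 0.033). Leaving out propionate library 1 or 2, or control library 2 or 3, ended the call (edgeR adjusted p = 0.0764, 0.0894, 0.0831 and 0.116). Exons of OTUB2 overlap those of DDX24 on the opposite strand over 640 bases in GENCODE 29, and DDX24, at 275 ± 16.9 CPM with propionate and 230.1 ± 5.05 CPM in control, was called higher too (log2 fold change 0.26, edgeR adjusted p = 0.0155). Whether the counting used strand is unknown, so reads of the overlap cannot be assigned with certainty. OTUB1, which also blocks the conjugating enzyme UBE2N, was at 94.1 ± 9.35 CPM with propionate and 94.4 ± 9.35 CPM in control (log2 fold change -0.00 with an SE of 0.0975, edgeR adjusted p = 0.983). It passed as lower with the GC trend removed and the replicate block together (log2 fold change -0.23, edgeR adjusted p = 0.00415). USP24 was at 18.2 ± 1.09 CPM with propionate and 23.7 ± 4.88 CPM in control with overlapping groups (log2 fold change -0.38 with an SE of 0.146, edgeR adjusted p = 0.0514). It passed in the blocked fit (edgeR adjusted p = 0.0126) and without control library 2 (0.0106). USP11, USP28, USP45 and USP47 had log2 fold changes between -0.23 and 0.03 and did not pass.

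In the group tied to NF-kB and innate signalling, CYLD rose, OTUD4, USP18 and USP31 fell, and 5 of 9 did not pass (44.4% called, against 34.2% of all genes). CYLD removes K63-linked and linear ubiquitin chains from NF-kB signalling complexes and is a tumour suppressor. It was at 22.6, 21.4 and 25.9 CPM in the propionate libraries, against 10.6, 13.7 and 14.1 CPM in the controls. Every propionate library was above every control, and CYLD was 1.82-fold higher (log2 fold change 0.87 with an SE of 0.146, edgeR adjusted p = 0.000132). TNFAIP3, which encodes A20, the other well-known brake on NF-kB in the group, had few reads, at 3.38 ± 0.953 CPM with propionate and 2.68 ± 0.407 CPM in control, and its groups overlapped (log2 fold change 0.34 with an SE of 0.304, edgeR adjusted p = 0.424).

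OTUD4, an OTU deubiquitinase with roles in repair of alkylated DNA and in innate signalling, was at 31, 31 and 34.5 CPM in the propionate libraries, against 52.9, 58 and 51.4 CPM in the controls. The groups lay well apart, and OTUD4 fell 1.68-fold (log2 fold change -0.75 with an SE of 0.101, edgeR adjusted p = 1.35e-05). USP18, which removes the ubiquitin-like modifier ISG15 and restrains interferon signalling, had 8.68, 11.4 and 8.45 CPM in the propionate libraries, against 12.9, 16.4 and 12.4 CPM in the controls. Its groups were close but did not overlap, and it was 1.46-fold lower (log2 fold change -0.55 with an SE of 0.173, edgeR adjusted p = 0.0196). Leaving out propionate library 1 or 3, or control library 2, ended the call (edgeR adjusted p = 0.074, 0.0705 and 0.11). USP31 had 11.1, 11.1 and 13.1 CPM in the propionate libraries, against 14.2, 15.6 and 18.7 CPM in the controls, and was 1.38-fold lower (log2 fold change -0.46 with an SE of 0.155, edgeR adjusted p = 0.0268). Leaving out propionate library 1 or 2, or control library 3, ended it (edgeR adjusted p = 0.0841, 0.084 and 0.129). USP4, OTUD5, OTUD7B and USP25 had log2 fold changes from -0.17 to 0.15 and did not pass.

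USP2 showed the largest fold change of the group. Its product stabilises cyclin D1 and MDM2, and its transcript follows the circadian clock in many tissues. The propionate libraries held 47, 39 and 52 reads, against 0, 3 and 7 reads in the controls. In CPM this was 3.64, 3.13 and 4.4 CPM in the propionate libraries, against 0, 0.256 and 0.583 CPM in the controls, so that the control level was near the limit of 3 reads and the gene entered the test through its propionate libraries. The 138 reads with propionate and 10 in control gave a ratio of 13 after scaling (exact binomial 95% interval 6.88 to 27.8, counting error only), with a fitted log2 fold change of 3.66 (SE 0.529, edgeR adjusted p = 2.74e-05). Without control library 3, which held 7 of the 10 control reads, the fitted log2 fold change was 4.73 (edgeR adjusted p = 8.49e-06). USP2-AS1, an antisense RNA of the locus that fell short of 60 reads, had 31 reads with propionate and 18 in control, and its part in the USP2 count was not tested. The other 7 genes of receptor, endosome, WNT and TGF-beta pathways did not pass (12.5% called with USP2, against 34.2% of all genes). USP8, which acts on receptors at endosomes, was at 115 ± 10.9 CPM with propionate and 126 ± 4.64 CPM in control (log2 fold change -0.13 with an SE of 0.0875, edgeR adjusted p = 0.29). USP34, which acts on the WNT scaffold axin, was at 116 ± 3.81 CPM with propionate and 119 ± 3.21 CPM in control (log2 fold change -0.04 with an SE of 0.0805, edgeR adjusted p = 0.761). USP9X was at 79.3 ± 6.43 CPM with propionate and 71.5 ± 4.65 CPM in control (log2 fold change 0.15 with an SE of 0.0931, edgeR adjusted p = 0.235), and passed after removal of the GC trend (log2 fold change 0.25, edgeR adjusted p = 0.034). USP6, USP15, USP32 and USP54 ranged from -0.20 to 0.25 on the log2 scale.

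USP20 and USP35 rose among the 5 genes tied to hypoxia-inducible factors, mitochondria and other organelles (40.0% called, against 34.2% of all genes). USP20 and its relative USP33 are known as deubiquitinases that bind the von Hippel-Lindau protein, the ligase subunit that marks hypoxia-inducible factors for destruction. USP20 was at 9.38, 11.3 and 8.2 CPM in the propionate libraries, against 5.07, 4.53 and 5.66 CPM in the controls. It was 1.89-fold higher (log2 fold change 0.92 with an SE of 0.201, edgeR adjusted p = 0.00145), with no overlap of the groups. USP33 had 49.4, 52.5 and 45.8 CPM in the propionate libraries, against 42.2, 45.5 and 40.4 CPM in the controls. These groups were apart by a small margin and USP33 missed the threshold (log2 fold change 0.21 with an SE of 0.0998, edgeR adjusted p = 0.118), which it passed in the fit with the replicate block (edgeR adjusted p = 0.0387) and after removal of the GC trend (0.0246). USP35 had 4.96, 6.26 and 5.92 CPM in the propionate libraries, against 2.36, 2.05 and 2.25 CPM in the controls. The lowest propionate library was more than any control, and USP35 was 2.57-fold higher (log2 fold change 1.36 with an SE of 0.261, edgeR adjusted p = 0.000473). An exon of USP35 overlaps one of its neighbour KCTD21 on the opposite strand by 11 bases, and KCTD21 was also called higher (log2 fold change 1.19, edgeR adjusted p = 0.000141). USP30, the deubiquitinase of the outer mitochondrial membrane that opposes parkin, was at 9.03 ± 2.1 CPM with propionate and 10.01 ± 1.13 CPM in control (log2 fold change -0.15 with an SE of 0.189, edgeR adjusted p = 0.577). USP19, anchored at the endoplasmic reticulum, was at 32.4 ± 3.78 CPM with propionate and 32.6 ± 3.81 CPM in control (log2 fold change -0.01 with an SE of 0.12, edgeR adjusted p = 0.961).

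Of 9 genes grouped under the cell cycle, p53, MYC, the nucleolus or splicing, USP37 alone passed (11.1% called, against 34.2% of all genes). USP37, which stabilises cyclin A, was at 107, 110.2 and 113 CPM in the propionate libraries, against 96.4, 86.3 and 93.3 CPM in the controls. The groups were apart by a margin like the spread within each, and USP37 was 1.2-fold higher (log2 fold change 0.26 with an SE of 0.0839, edgeR adjusted p = 0.0217), and the call was lost without propionate library 3 or control library 2 (edgeR adjusted p = 0.0656 and 0.0939). Its exons overlap those of VIL1, the gene of the brush border protein villin, on the opposite strand over 3045 bases. VIL1 was at 63.2 ± 4.25 CPM with propionate and 66.5 ± 1.31 CPM in control (log2 fold change -0.07, edgeR adjusted p = 0.572), and the share of its reads in the USP37 count was not tested. USP48, a nuclear deubiquitinase, was at 229.6, 257 and 240.2 CPM in the propionate libraries, against 212, 226 and 203 CPM in the controls. Its groups did not overlap and it missed the threshold (log2 fold change 0.18 with an SE of 0.0809, edgeR adjusted p = 0.0922), but passed with the replicate block (edgeR adjusted p = 0.00614) and after removal of the GC trend (0.0346). USP10, which acts on cytoplasmic p53, was at 122 ± 7.29 CPM with propionate and 117 ± 8.26 CPM in control (log2 fold change 0.06 with an SE of 0.0863, edgeR adjusted p = 0.607). USP39 was at 78.8 ± 5.83 CPM with propionate and 73.4 ± 3.98 CPM in control (log2 fold change 0.10 with an SE of 0.0909, edgeR adjusted p = 0.418). USP36, USP38, USP40, USP43 and USP53 did not pass, with log2 fold changes from -0.51 to 0.10. The place of USP40 and USP53 in this group is loose and rests on no result of these data. Without propionate library 1, USP43 passed as lower (edgeR adjusted p = 0.029).

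Of the 6 deubiquitinases of the proteasome and of ubiquitin recycling, USP13 fell and the other 5 did not pass (16.7% called, against 34.2% of all genes). USP13, a relative of USP5, was at 40.9, 37.3 and 45.6 CPM in the propionate libraries, against 67.1, 56.5 and 71.2 CPM in the controls. Every propionate library was below every control, and USP13 was 1.57-fold lower (log2 fold change -0.65 with an SE of 0.109, edgeR adjusted p = 0.000121). USP5, which disassembles unanchored ubiquitin chains, was at 84.8 ± 9.03 CPM with propionate and 91.9 ± 14.1 CPM in control (log2 fold change -0.11 with an SE of 0.109, edgeR adjusted p = 0.451). It passed as lower with the GC trend removed (log2 fold change -0.29, edgeR adjusted p = 0.0359). USP14, bound to the proteasome, was at 143 ± 5.66 CPM with propionate and 153 ± 4.89 CPM in control, with the propionate libraries below the controls by a small margin (log2 fold change -0.10 with an SE of 0.0793, edgeR adjusted p = 0.358). UCHL5, the other cysteine protease of the proteasome, was at 75.1 ± 3.96 CPM with propionate and 71.3 ± 4.14 CPM in control (log2 fold change 0.07 with an SE of 0.0897, edgeR adjusted p = 0.558). It passed as higher with the GC trend removed and the replicate block together (log2 fold change 0.20, edgeR adjusted p = 0.0222). UCHL3 was at 54.9 ± 8.37 CPM with propionate and 54.2 ± 5.56 CPM in control (log2 fold change 0.02 with an SE of 0.115, edgeR adjusted p = 0.925). UCHL1, the neuronal family member, was at 8.07 ± 1.36 CPM with propionate and 8.13 ± 0.534 CPM in control (log2 fold change -0.01 with an SE of 0.188, edgeR adjusted p = 0.969).

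None of the 3 Josephin genes passed, where 34.2% of all genes did. ATXN3, the gene of the polyglutamine disease Machado-Joseph disease, was at 30.3, 31.6 and 32.7 CPM in the propionate libraries, against 34.9, 36.2 and 35 CPM in the controls. Its propionate libraries were all below the controls, and it missed the threshold (log2 fold change -0.17 with an SE of 0.103, edgeR adjusted p = 0.228). JOSD1 was at 62 ± 2.01 CPM with propionate and 54.4 ± 6.46 CPM in control (log2 fold change 0.19 with an SE of 0.10, edgeR adjusted p = 0.152). It passed with the replicate block (edgeR adjusted p = 0.0392). JOSD2 was at 4.58 ± 1.5 CPM with propionate and 4.24 ± 0.624 CPM in control (log2 fold change 0.12 with an SE of 0.269, edgeR adjusted p = 0.775). OTUD6B was at 22.4 ± 3.63 CPM with propionate and 26.8 ± 2.76 CPM in control (log2 fold change -0.26 with an SE of 0.134, edgeR adjusted p = 0.15). It passed in the blocked fit (edgeR adjusted p = 0.0491) and without propionate library 2 (0.0432). OTUD1 and OTUD3 had log2 fold changes of 0.08 and 0.02. Of the 6 symbols that are not deubiquitinases, the antisense RNA OTUD6B-AS1 fell, at 108, 121 and 95.9 CPM in the propionate libraries, against 169, 162 and 140.2 CPM in the controls (log2 fold change -0.54 with an SE of 0.0969, edgeR adjusted p = 0.000272). UBL7 was at 36.3 ± 1.46 CPM with propionate and 36.1 ± 2.17 CPM in control (log2 fold change 0.01 with an SE of 0.103, edgeR adjusted p = 0.961). USP12-AS1, USP3-AS1, USP32P2 and USP6NL did not pass, with log2 fold changes from -0.65 to 0.44. USP50 had 22 reads with propionate and 47 in control, 31 of them in control library 3, and did not enter the test. USP50, with 69 reads, was the gene just inside the minimum of 60 reads, and USP46-AS1 with 52 reads and USP2-AS1 with 49 lay just outside.

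Within pairs of related genes, read ratios that do not depend on library scaling were compared in each library. The log2 ratio of USP27X over USP22 was -4.97, -4.65 and -5.21 with propionate and -6.12, -6.49 and -6.21 in control, a difference of 1.33. For USP35 over USP38 it was -1.71, -1.25 and -1.49 with propionate and -2.86, -2.82 and -3.01 in control, a difference of 1.41. USP35 and USP20 thus gained on their relatives in every propionate library, the ratio of USP20 over USP33 being -2.4, -2.21 and -2.48 with propionate and -3.06, -3.33 and -2.83 in control. The ratio of OTUB2 over OTUB1 differed by 0.75 and that of USP46 over USP12 by -0.29, both without overlap of the groups. In USP13 over USP5 the groups overlapped as wholes, with -1.14, -1.27 and -0.7 with propionate and -0.45, -0.91 and -0.13 in control. The exact two-sided permutation test gave p = 0.1 for the 5 pairs without overlap, which is the smallest that 3 against 3 libraries allow, and p = 0.2 for USP13 over USP5 (adjusted over the 6 pairs, 0.12 and 0.2). Within replicate numbers the USP13 over USP5 ratio was lower with propionate in 3 of 3 pairs, by -0.69, -0.36 and -0.57. The other 5 ratios also differed in one direction in 3 of 3 pairs, and the exact sign-flip test gave p = 0.25 for each of the 6, the smallest that 3 pairs allow. No pair could therefore pass a threshold of 0.05, and the pairs were picked after their fold changes were known.

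**Figure D3:**
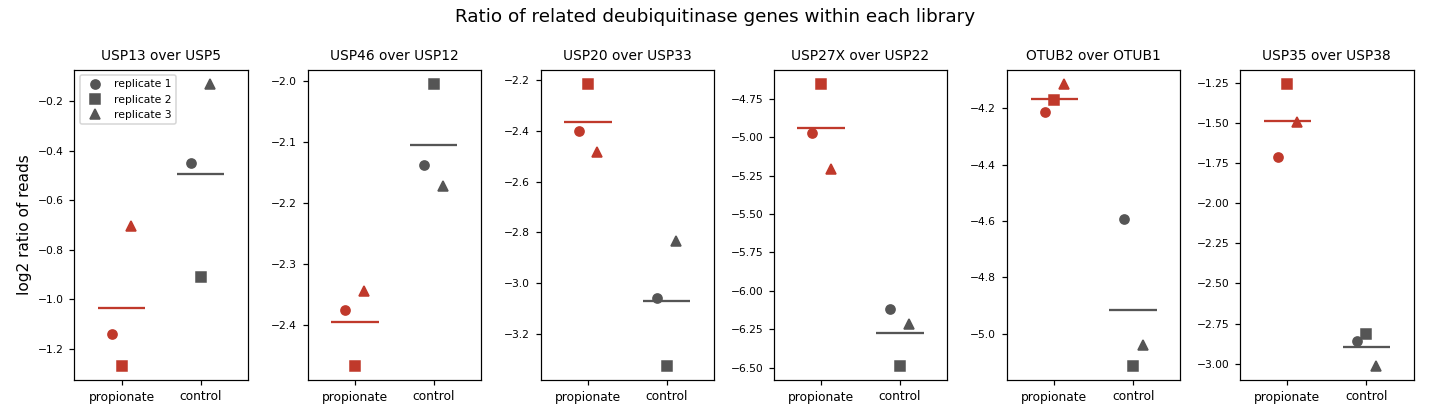
Log2 ratio of the reads of 2 related genes within each library, propionate at left and control at right, for 6 pairs, each with its own axis; symbols mark replicate numbers and lines the mean of 3. The groups are apart in 5 pairs and overlap in USP13 over USP5, and the difference is largest for USP35 over USP38, at 1.41, and for USP27X over USP22, at 1.33.

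Genes of proteins that work with these deubiquitinases passed the test about as often as genes in general. Of 35 such partners tested, 4 were higher and 8 were lower, 34.3% of them against 34.2% of all genes. In the SAGA module, ATXN7L2, a relative of the anchoring subunit ATXN7, was at 2.43 ± 0.764 CPM with propionate and 9.48 ± 2.11 CPM in control (log2 fold change -1.96 with an SE of 0.258, edgeR adjusted p = 1.03e-05). ATXN7 itself (log2 fold change -0.13, edgeR adjusted p = 0.601) and ATXN7L1 (-0.11, edgeR adjusted p = 0.722) did not pass. The USP22 activators ATXN7L3 and ENY2 had log2 fold changes of -0.16 and -0.14 (edgeR adjusted p = 0.277 and 0.318). BAP1 itself did not pass. Of the 7 BAP1 partners tested, 1 was higher, 4 were lower, and the demethylase KDM1B (log2 fold change 0.20, edgeR adjusted p = 0.386) and FOXK2 (0.11, edgeR adjusted p = 0.431) did not pass, so that 71.4% were called, against 34.2% of all genes. These 7 genes were grouped after their values were seen. Those that fell were the activating subunits ASXL1 (log2 fold change -0.67, edgeR adjusted p = 4.64e-05) and ASXL2 (-0.91, edgeR adjusted p = 9.09e-05), the transcription cofactor HCFC1 (-0.64, edgeR adjusted p = 9.45e-06) and the glycosyltransferase OGT (-0.48, edgeR adjusted p = 0.0028). FOXK1, a transcription factor that recruits BAP1, was called higher (log2 fold change 0.33 with an SE of 0.114, edgeR adjusted p = 0.0302) although its groups overlapped. This call was lost in 8 of 19 alternative settings, among them the removal of the GC trend (edgeR adjusted p = 0.273) and without propionate library 1 or 2 or any one of the control libraries (edgeR adjusted p between 0.0539 and 0.199).

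The CYLD adaptor SPATA2 was higher at 30.01 ± 1.51 CPM with propionate and 22.9 ± 2.16 CPM in control (log2 fold change 0.39 with an SE of 0.117, edgeR adjusted p = 0.0145). That call was lost without propionate library 2, control library 2 or control library 3 (edgeR adjusted p = 0.0556, 0.0542 and 0.052). TNIP1, which binds A20, was also higher (log2 fold change 0.34 with an SE of 0.0972, edgeR adjusted p = 0.0116), a call lost without propionate library 2 (edgeR adjusted p = 0.0719) and after removal of the GC trend (0.302). The p53 regulators MDM4 (-0.76, edgeR adjusted p = 4.59e-06) and MDM2 (-0.36, edgeR adjusted p = 0.00281), which USP7 and USP2 act on, were lower. WDR48, the activator shared by USP1, USP12 and USP46, was at 37.7 ± 4.83 CPM with propionate and 37.3 ± 5.68 CPM in control (log2 fold change 0.01 with an SE of 0.124, edgeR adjusted p = 0.949).

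**Figure D4:**
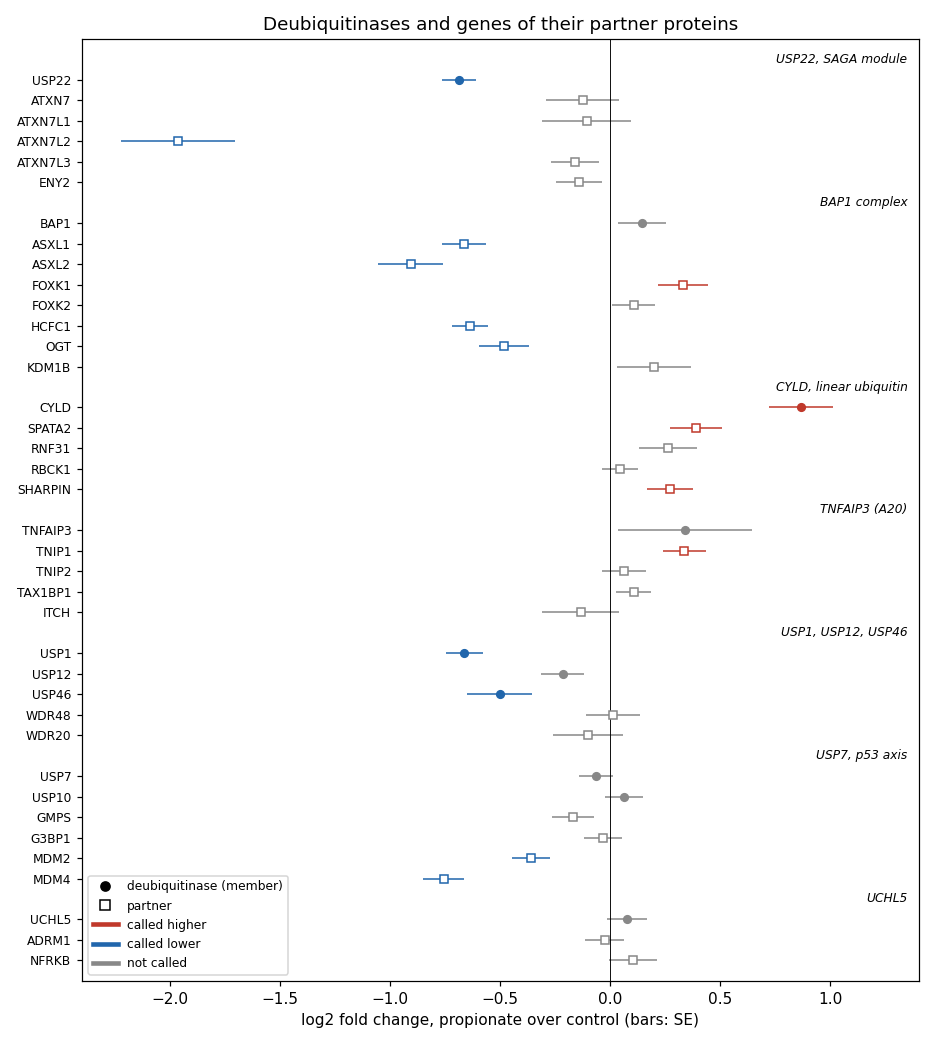
Fitted log2 fold change, propionate over control, of deubiquitinases (filled circles) and of genes of their partner proteins (open squares), by complex, with bars for 1 SE; red marks higher, blue lower and grey genes that did not pass. BAP1 sits at 0.14 while ASXL1, ASXL2, HCFC1 and OGT lie between -0.91 and -0.48, and USP1 and USP46 lie left of 0 while WDR48 sits at 0.01.

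In the wider ubiquitin system, the share of genes called in either direction was above the 34.2% of all genes for the conjugating enzymes, at 39.4%, and below it for the other 4 lists. Of 23 other genes of deubiquitinase families, mostly metalloprotease and small families with other names, none was higher and 6 were lower (26.1% called). Over all genes, 17.2% were higher and 17.0% lower. The 23 genes were listed by family, and not all of their proteins cut ubiquitin. The falls were led by the endosomal STAMBPL1 (10.8 ± 1.52 CPM with propionate and 20.8 ± 1.41 CPM in control, log2 fold change -0.95 with an SE of 0.148, edgeR adjusted p = 6.02e-05), the proteasome subunit PSMD7 (-0.42) and PAN2 (-0.82). PAN2 trims poly(A) tails and has no deubiquitinase activity of its own. Among 33 conjugating enzymes 5 were higher and 8 lower, with the mitotic enzyme UBE2C lower (log2 fold change -1.05 with an SE of 0.0851, edgeR adjusted p = 3.92e-08) and CDC34 higher (log2 fold change 0.65 with an SE of 0.0872, edgeR adjusted p = 1.18e-05). Of 39 proteasome subunits outside the deubiquitinase families 2 were higher and 6 lower (20.5% called). The subunits PSMD7 and PSMD14 (log2 fold change -0.28, edgeR adjusted p = 0.0107), counted with those families above, were lower too. The higher ones were PSMB9, an interferon-inducible catalytic subunit (log2 fold change 0.99 with an SE of 0.155, edgeR adjusted p = 6.96e-05), and PSME2, a subunit of the proteasome activator PA28 (log2 fold change 0.26 with an SE of 0.0977, edgeR adjusted p = 0.0427). The PSME2 call was lost after removal of the GC trend (edgeR adjusted p = 0.455) and without propionate library 1 or 2 or control library 1 or 3 (edgeR adjusted p = 0.0685, 0.227, 0.0533 and 0.209). Of 12 genes of ubiquitin and activating enzymes (16.7% called), the polyubiquitin gene UBB was higher (log2 fold change 0.34 with an SE of 0.0812, edgeR adjusted p = 0.00281) and UBA2, which activates SUMO, was lower (-0.32). Of 8 SUMO and NEDD8 proteases (25% called), SENP6 was lower (log2 fold change -1.12 with an SE of 0.126, edgeR adjusted p = 1.69e-06) and DESI1 was higher (log2 fold change 0.30 with an SE of 0.0946, edgeR adjusted p = 0.0182). The DESI1 call was lost after removal of the GC trend (edgeR adjusted p = 0.0508), without propionate library 3 (0.0759) and without control library 1 (0.07).

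Genes called higher had transcripts of higher GC content than genes called lower, among the deubiquitinases and among all genes. Median GC content of the GENCODE 29 transcript was 49.1% for the 8 genes called higher and 40.9% for the 9 called lower, with 55.7% and 45.8% for all genes called higher and lower. With tested genes cut into 5 equal classes of GC content, the lowest class held 24 of the 68, of which 2 were higher and 5 lower, where 8.26% and 22.4% of all genes in that class were higher and lower. The highest class held 7, of which 2 were higher and 0 lower, against 33% and 8.81% of all genes in it. After removal of each library's GC trend, all 17 calls were kept. USP22 then had a log2 fold change of -0.77, USP16 -0.67, CYLD 0.97 and USP20 0.69. The same 17 genes were also kept by DESeq2, limma-voom and the blocked fit. With the GC trend removed and the block together, 25 passed, 12 higher and 13 lower, or 36.8% of the group tested against 45.0% of all genes. Among them were OTUB1, UCHL5 and USP43, which passed with neither change alone. The version that used the GC content of the last 500 transcript bases with the block called 44.1% of the group, against 46.1% of all genes. It called OTUB1 too, and moreover UBL7, USP4, USP7, USP11 and USP19 as lower and USP42 as higher.

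**Figure D5:**
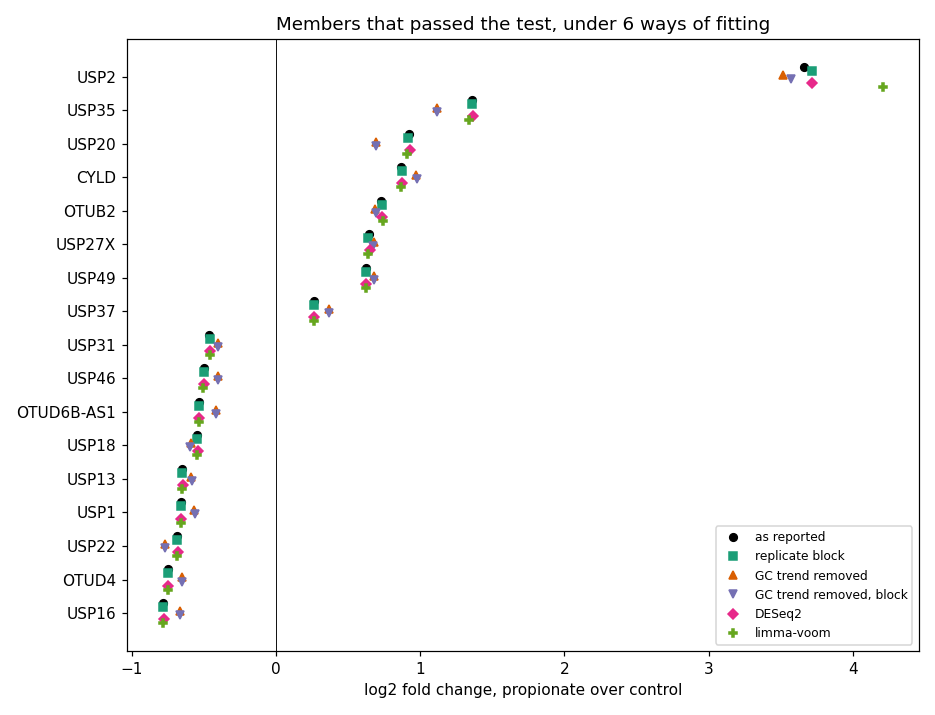
Fitted log2 fold change, propionate over control, of the 17 genes that passed, under 6 ways of fitting marked by symbol. All symbols of a gene lie on one side of 0, and with the GC trend removed USP20 sits at 0.69 instead of 0.92 and USP22 at -0.77 instead of -0.69.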

How the data were processed

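For each library the authors deposited a table of whole-number, unnormalised read counts by gene symbol. Per the labels' protocols, libraries were made with a Lexogen QuantSeq kit, a kit that primes on poly(A) and counts mostly 3′ ends. The submitters' processing notes name Bowtie2, edgeR, hg19 and GRCh37, with no version or role. Neither the counting tool nor its strand setting or annotation is named there.

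Counts of the 286 symbols on several lines were summed, none of them in the group. Genes kept by filterByExpr (13605) were tested with edgeR 4.0.16 in R 4.3.3 (TMM factors, quasi-likelihood F test, no covariate, both directions, Benjamini-Hochberg adjusted p under 0.05). The SE is the log2 fold change over the square root of F. Alternatives used DESeq2 1.42.0, limma 3.58.1, other scaling, filters and thresholds, the replicate block, each library left out, and each library's trend with GC content removed (splines with 4 degrees of freedom). GENCODE 29 gave a transcript for 93.4% of tested genes and for all 68 tested genes of the group. The fit was run on simulated data with known fold changes, with a common dispersion for all genes and no replicate effect. That run checks the code and not the p-values given here. The deposited tables record no molecular identifiers.

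Groups came from the sample titles, where primes mark the replicates, here numbered 1 to 3. Over 9284 genes above 10 CPM, the deviations of same-numbered libraries around their group means had correlations of 0.243, 0.4 and 0.446. On the data alone, these numbers were taken to pair the libraries in the replicate block and the sign-flip test, while the main fit left the pairing out. Libraries of a group differed by more than sampling noise (chi-square per degree of freedom 6.01 to 8.85). The genes named were 16 set members, up to 12 called members per direction, members at 50 CPM or more, and 3 called genes per list and direction. Other members were named to account for all of them, and other partners after their values were seen. The members, lists and tests were chosen with earlier results of these data known, and the pairs of related genes and the version with GC content of the last 500 bases were added after seeing the data.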

Additional observations from a re-analysis of the deposited data

How the results depend on the processing

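The 8 higher and 9 lower calls were the same genes with DESeq2 size factors, upper-quartile factors, library totals, DESeq2, limma-voom and repeated symbols taken by their largest line, and all 17 were kept without a filter, with the replicate block and with the GC trend removed. The replicate block gave 11 higher and 12 lower calls, 33.8% of the group tested, where 44.5% of all genes were then called. Beyond the 6 genes gained, given with their values, it changed no call of the group. Fewer higher calls were found with a mean of 5 CPM or more, at 5, since USP2, USP35 and OTUB2 were then not tested. That filter called 24.1% of the group and 37.3% of all genes. An adjusted p under 0.01 also gave 5 higher calls (16.2% of the group called, against 22.1% of all genes), and all lower genes then fell to 1424. Leaving out 1 library gave 5 to 8 higher calls, the 5 without control library 2, and 8 to 10 lower calls. The share of the group called was then 21.7% to 24.6%, against 28.0% to 29.6% of all genes. With the GC trend removed and the block, 12 were higher and 13 lower (36.8% called, against 45.0% of all genes). With the trend of the last 500 bases removed together with the block, 13 were higher and 17 lower (44.1% called, against 46.1% of all genes). UBL7 then became lower (log2 fold change -0.28, edgeR adjusted p = 0.012), and the cause was not tested. The median log2 fold change of members of the group, near 0, was 0.0232 with upper-quartile factors, -0.0206 with the GC trend removed, -0.0204 with the block added, -0.0473 with the 3′ end trend and block, and -0.0434 to 0.000981 with 1 library left out; its sign is not set by these data. Genes with few reads had wide errors, with an SE of 0.269 for JOSD2, 0.304 for TNFAIP3 and 0.352 for OTUD1.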
